A study of Mus musculus with 2 samples.

Results

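The contractile and mural genes described here were Acta2, Tagln, Myh11, Cnn1, Myl9, Des, Tpm2, Actg2, Rgs5 and Notch3, 10 of the 32285 features measured by single-cell RNA-Seq in mouse mitral valve. They were chosen by name, and each matched 1 feature. The valves came from untreated 12-week-old mice on a C57BL/6J background: Fbn1+/+ littermates (WT) and Fbn1 mgR/mgR mice (mgR), which carry on both chromosomes a hypomorphic allele with an inserted neo cassette that lowers fibrillin-1 and keeps the coding sequence. The study's methods describe its mgR colony as a substrain, long separated from the founder animals. There was 1 library per genotype, from digested leaflets sorted for viable cells, and the labels do not say how many animals went into a library. A legend of the supplement gives a number of mice for this experiment without tying it to libraries. Cells with 200 to 5000 genes and at most 10% mitochondrial UMIs (unique molecular identifiers, the counted molecules) were kept, which left 875 WT cells and 3438 mgR cells. Cells with at least 10 UMIs of Col1a2, Col3a1 and Dcn together were called fibroblasts, and cells with at least 2 UMIs of Pecam1 and Cdh5 together were called endothelium. Cells over both limits were held apart, and all others are called the rest.

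Smooth muscle cells and myofibroblasts share a contractile apparatus in which actin filaments slide along myosin. Acta2 and Actg2 encode smooth muscle actins, Myh11 the smooth muscle myosin heavy chain, Myl9 its regulatory light chain, and Tpm2, Tagln and Cnn1 (tropomyosin, transgelin and calponin) bind actin filaments. Des encodes the intermediate filament desmin. Mural cells (pericytes and vascular smooth muscle) are classically marked by Rgs5, a regulator of G-protein signaling, and by Notch3, a receptor for Notch ligands on endothelium. In valves, interstitial fibroblasts that gain Acta2 and Tagln are called activated or myofibroblast-like, and serum response factor with myocardin-related factors drives many of these genes through CArG boxes.

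The WT fibroblasts numbered 324 and held 1713790 UMIs, and the mgR fibroblasts numbered 899 and held 6482165 UMIs. Their median depth was 5188 and 6832 UMIs per cell. All 8 fixed fibroblast markers were seen in at least 20% of fibroblasts of both libraries. The libraries shared 2 cell barcodes, and 0 of these were kept in both. The methods name male mice for comparisons, but both libraries held cells with Xist alone and cells with Y-linked transcripts alone (Ddx3y, Eif2s3y, Kdm5d or Uty). Cells with Xist alone were 25% of WT and 59.4% of mgR fibroblasts, and cells with only Y-linked UMIs were 44.4% and 23.7%. The sex of the cells and the genotype were therefore unequally mixed, and comparisons of genotypes are also given within each set of cells. Fbn1 itself, whose coding sequence the allele keeps, was at 170 CPM (UMIs per 1000000 UMIs of the class) in WT and 132 in mgR fibroblasts. With 1 library per genotype no test was possible, so no P value is given. Intervals in parentheses are exact 95% intervals that cover counting error only.

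All 10 genes are protein coding in the GENCODE annotation of GRCm38, and none overlaps another gene on its strand. Acta2 (ENSMUSG00000035783) lies on chromosome 19 from 34241090 to 34255590, and Tagln (ENSMUSG00000032085) on chromosome 9 from 45929619 to 45936058, both on the minus strand. Tpm2 (ENSMUSG00000028464) lies on chromosome 4 from 43514711 to 43523765 on the minus strand, and Myl9 (ENSMUSG00000067818) on chromosome 2 from 156775420 to 156781658 on the plus strand. Rgs5 (ENSMUSG00000026678) lies on chromosome 1 from 169655501 to 169695813 on the plus strand, and Notch3 (ENSMUSG00000038146) on chromosome 17 from 32120820 to 32166852 on the minus strand. Myh11 (ENSMUSG00000018830) lies on chromosome 16 from 14194535 to 14291372 on the minus strand. Des (ENSMUSG00000026208) lies on chromosome 1 from 75360329 to 75368579, and Cnn1 (ENSMUSG00000001349) on chromosome 9 from 22099216 to 22109630, both on the plus strand. Actg2 (ENSMUSG00000059430) lies on chromosome 6 from 83512905 to 83536265 on the minus strand. The last 500 bases of Acta2 transcripts, from which these 3-prime libraries read, shared no stretch of 31 bases with Actg2, Acta1 or Actc1, so reads of these actins could be told apart.

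Promoter sequences were at hand for 7 of the 10 genes from RefSeq (GRCm38.p6), each covering 250 bases before and 50 after the start, and Tagln, Myh11 and Actg2 had none. A strict CArG box, searched by name and identical in form on both strands, was present in 1 of the 7, that of Myl9. Of 32851 mouse promoters of this length, 535 (1.63%) held one. The Myl9 box, shown because it is the element through which serum response factor acts, lay 161 to 152 bases before the start (chr2:156775293-156775322, plus strand, box in capitals).
Myl9: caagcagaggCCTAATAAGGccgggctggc
The letters alone do not show that the site is bound, and their absence from the other windows says nothing of the factor.

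The genes were found almost wholly in fibroblasts. Of the 703 UMIs of the 10 genes in kept WT cells, 93.7% were in fibroblasts, which held 37.4% of all UMIs. Of the 3598 UMIs in kept mgR cells, 89.4% were in fibroblasts, which held 24.3% of all UMIs. At least 1 of the genes was seen in 198 of 324 WT fibroblasts (61.1%, 55.6 to 66.5) and in 628 of 899 mgR fibroblasts (69.9%, 66.7 to 72.8). In endothelium the same held for 1 of 31 WT cells and 5 of 168 mgR cells. Among the rest it held for 21 of 491 WT cells and 118 of 2061 mgR cells, of which 17 and 108 were leukocytes. At the fibroblast limit, 15.8% of the 19 WT cells with 5 to 9 fibroblast UMIs carried a member against 18.2% of the 11 with 10 to 14. In mgR these shares were 6.25% of 80 cells and 9.09% of 55 cells.

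Among the contractile genes, Tagln was seen in 84 WT fibroblasts with 256 UMIs and in 298 mgR fibroblasts with 1169 UMIs. This gave 149 CPM (132 to 169) in WT and 180 CPM (170 to 191) in mgR. Acta2 was seen in 61 WT fibroblasts with 125 UMIs, at 72.9 CPM (60.7 to 86.9), and in 261 mgR fibroblasts with 634 UMIs, at 97.8 CPM (90.3 to 106). Both genes were therefore detected in a minority of fibroblasts, and the counts were uneven between cells: 38 of the 61 Acta2-bearing WT cells held 1 UMI, while the highest held 16, and the highest mgR cell held 36. The 10 cells with most Acta2 held 44.0% of its UMIs in WT and 25.7% in mgR, and for Tagln the shares were 45.7% and 31.8%. Tpm2 was at 55.4 CPM (44.8 to 67.8) from 95 UMIs in 62 WT cells and at 89.8 CPM (82.6 to 97.4) from 582 UMIs in 284 mgR cells. Myl9 was at 12.8 CPM (8.05 to 19.4) from 22 UMIs in 18 WT cells and at 22.8 CPM (19.3 to 26.8) from 148 UMIs in 89 mgR cells.

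The genes that mark mature smooth muscle were nearly undetected. Myh11 had 0 UMIs in 324 WT fibroblasts, which limits the share of cells with a UMI of it to 0.926% but not the share that express it, and 20 UMIs in 8 of 899 mgR fibroblasts (0.890%, 0.385 to 1.75). Cnn1 had 1 UMI in each library. Actg2 had 0 UMIs in all 4313 kept cells, a limit of 0.0696% on cells with a UMI at this depth. Des had 4 UMIs in 3 WT fibroblasts and 33 UMIs in 13 mgR fibroblasts, and 57.6% of the latter were in the cells with Myh11. Myocd, the myocardin coactivator of smooth muscle, had 0 UMIs in every class of both libraries, whereas its relatives Mrtfa and Mrtfb were seen in 3.09% and 9.57% of WT fibroblasts and 5.56% and 11.9% of mgR fibroblasts.

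The mural markers were both found in fibroblasts. Rgs5 was at 77.0 CPM (64.4 to 91.3) from 132 UMIs in 58 WT fibroblasts and at 79.8 CPM (73.0 to 86.9) from 517 UMIs in 126 mgR fibroblasts. It was in 17.9% of WT fibroblasts (13.9 to 22.5) and 14% of mgR fibroblasts (11.8 to 16.5). Notch3 was at 14 CPM (8.97 to 20.8) from 24 UMIs in 21 WT fibroblasts and at 17.3 CPM (14.2 to 20.8) from 112 UMIs in 55 mgR fibroblasts. Rgs5 and Notch3 had 0 UMIs in endothelium of both libraries. Rgs5 had 4 UMIs in 3 WT cells and 7 UMIs in 2 mgR cells of the rest, none of them leukocytes.

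**Figure D1:**
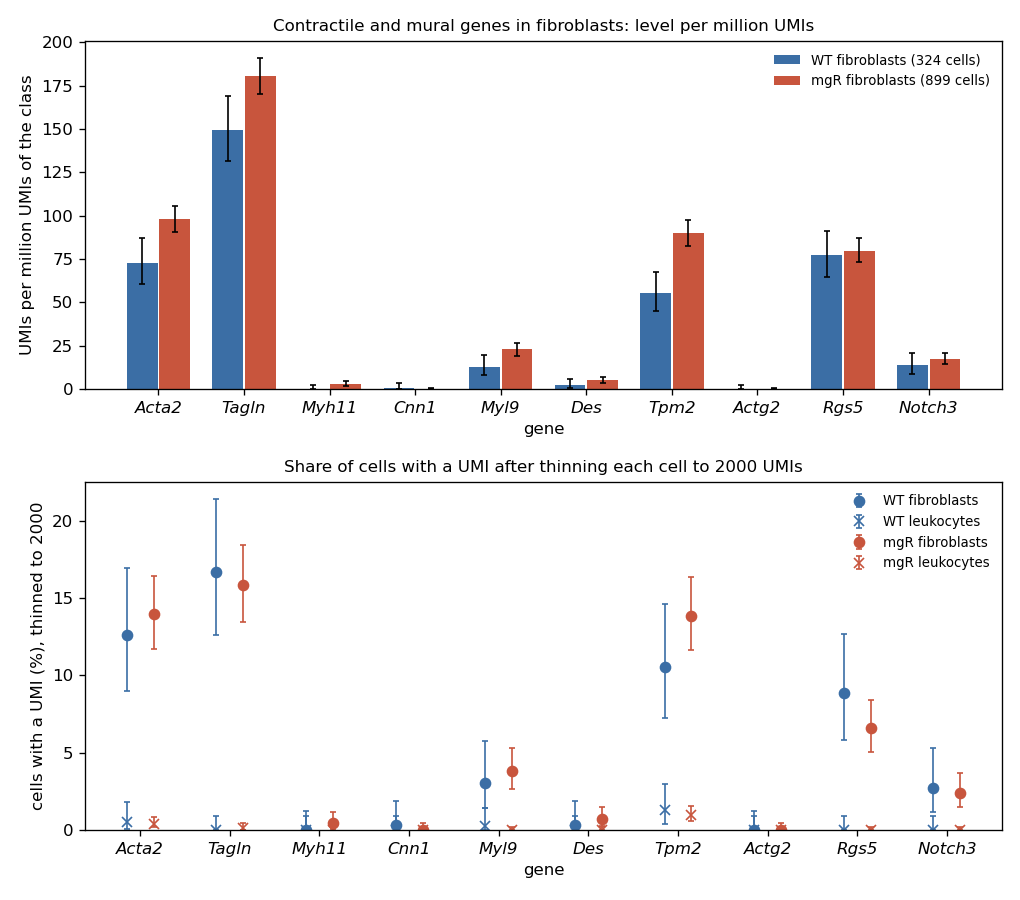
Top, level of each gene in fibroblasts in CPM, as bars with exact 95% Poisson intervals, for WT and mgR. Bottom, percent of fibroblasts (circles) and of leukocytes (crosses) with a UMI after each cell was thinned to 2000 UMIs, with exact binomial intervals. Acta2, Tagln, Tpm2 and Rgs5 stand above leukocytes in both libraries, and Actg2 is at 0 throughout. Bars of different genes are not corrected for length and are not compared.

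The share of cells with a UMI depends on depth and on free RNA, so leukocytes were measured alongside. Tpm2 reached 3 or more UMIs in 5 mgR leukocytes, the highest with 8, and whether leukocytes express it was not tested. Leukocytes had a median of 5225 UMIs in WT and 8137 in mgR. Tpm2 was seen in 2.58% of WT and 3.58% of mgR leukocytes, Acta2 in 1.17% and 1.11%, Tagln in 0% and 0.656%, and Rgs5 in none of 427 and none of 1981, where 0 UMIs allow shares of cells with a UMI of up to 0.703% and 0.151%. After each cell was thinned to 2000 UMIs, which left out 30 WT and 33 mgR fibroblasts, Acta2 was seen in 12.6% of WT fibroblasts (9.02 to 16.9, against 18.8% unthinned) and 14% of mgR fibroblasts (11.7 to 16.5, against 29.0%). The thinned shares of Tagln were 16.7% and 15.8%, against 25.9% and 33.1% unthinned. Those of Tpm2 were 10.5% and 13.9%, against 19.1% and 31.6%. At equal depth the intervals of both genotypes overlapped for every one of the 10 genes.

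The comparison of mgR with WT asked whether contractile and mural genes were at higher levels in fibroblasts of the myxomatous valve. By summed UMIs some of the contractile genes were higher in mgR: Acta2 by 1.34-fold (1.11 to 1.64), Tagln by 1.21-fold (1.05 to 1.39), Tpm2 by 1.62-fold (1.30 to 2.03) and Myl9 by 1.78-fold (1.13 to 2.92). Rgs5 had a ratio of 1.04 (0.854 to 1.26) and Notch3 of 1.23 (0.789 to 2.01), so neither differed by more than counting error. Des had a ratio of 2.18 (0.776 to 8.47) and Cnn1 of 0.264 (0.00337 to 20.8), both from too few UMIs for a direction. Myh11 had 0 UMIs in WT and 20 UMIs in 8 mgR cells. Its ratio was 1.76 with the WT class set to 3 counts, and its exact interval ran from 1.305 upward. Of the 6 genes with at least 50 UMIs in the class, 2 (Myl9 and Tpm2) were at least 1.5-fold higher in mgR and 0 were 1.5-fold lower. Over all 9629 genes with that many UMIs, 7.39% were 1.5-fold higher and 7.6% were 1.5-fold lower. The median log2 ratio was 0.55 over the 8 genes with at least 10 UMIs and -0.05 over all 12811 such genes. Of the 8, Myh11 (0 WT and 20 mgR UMIs) and Des (4 and 33) reached that limit only through mgR, where they were higher. Myh11 had no plain ratio and entered through a prior count of 0.5. With no minimum beyond 1 UMI the median over the members was 0.42. Without the 8 cells that held Myh11 the median over the members was 0.06 and the count past 1.5-fold was 0, with ratios of 1.43 for Myl9 and 1.44 for Tpm2. These cells were all from mgR and rich in the other genes, so leaving them out by itself can lower such ratios. Myh11, then with 0 UMIs in both libraries, still entered this median, at a value below 0 set by the prior count and the class totals. Without the 10 cells of each library with most UMIs of the gene, the ratio was 1.72 for Acta2, 1.48 for Tagln and 3.34 for Myl9. The cells left out were a larger part of the 324 WT than of the 899 mgR fibroblasts, which by itself can raise such ratios. For Myl9 they held 63.6% of the WT and 29.7% of the mgR UMIs. After thinning to 2000 UMIs the count past 1.5-fold was 0, and the ratios were 1.36 for Myl9, 1.35 for Tpm2 and 0.956 for Tagln. These came from a random draw that left out 30 WT and 33 mgR fibroblasts, gave each cell equal weight and left Myl9 in 9 WT cells. Intervals were not computed for them, and the part of depth in the unthinned ratios was not tested.

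These ratios differed between cells with Xist alone and cells with only Y-linked UMIs. In fibroblasts with Xist alone (81 WT and 534 mgR cells), Acta2 was at 90.7 CPM in WT and 89.5 in mgR, a ratio of 0.987 (0.716 to 1.39). In fibroblasts with only Y-linked UMIs (144 and 213 cells), it was at 51.2 and 115 CPM, a ratio of 2.25 (1.59 to 3.25). Tagln gave ratios of 0.822 (0.661 to 1.03) and 2.60 (2.02 to 3.38), and Tpm2 gave 0.773 (0.566 to 1.08) and 3.33 (2.29 to 4.97). Myl9 gave 0.534 (0.297 to 1.03), from 14 and 66 UMIs, and 6.12 (2.47 to 19.6), from 5 and 56 UMIs. For all 4 genes the intervals of both sets of cells did not overlap, and the WT cells with Xist alone were higher than the WT cells with only Y-linked UMIs. Rgs5 gave 0.977 (0.703 to 1.39) and 1.10 (0.795 to 1.54), and Notch3 gave 0.665 (0.311 to 1.63) and 2.37 (1.13 to 5.56), with overlapping intervals for both genes. Of the 20 Myh11 UMIs in mgR fibroblasts, 12 were in cells with only Y-linked UMIs and 4 in cells with Xist alone. The ratios by set were not recomputed without the cells with Myh11. The difference between the sets was not tested, because each set came from the same 1 library per genotype. Sex by these genes and the animal a cell came from cannot be told apart where each animal was of 1 sex.

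**Figure D2:**
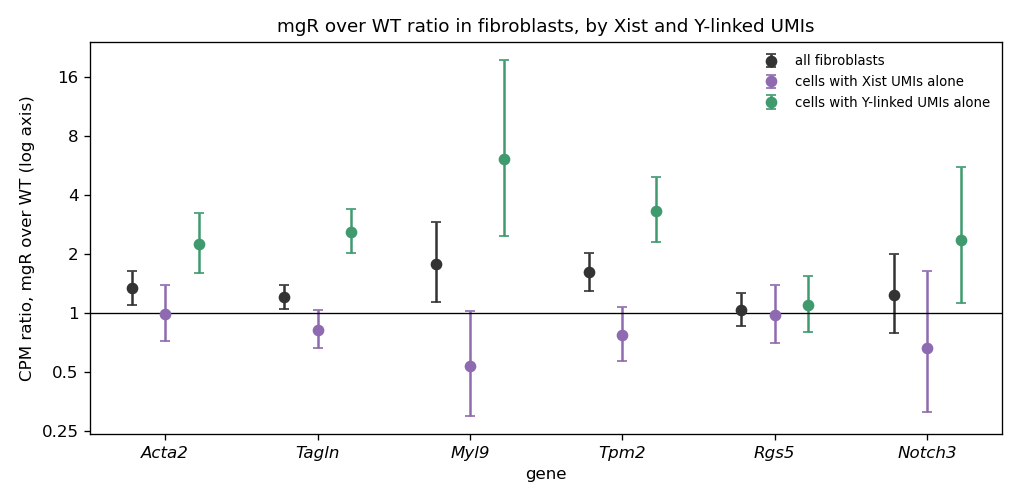
CPM ratio of mgR over WT (log axis) with exact 95% intervals for 6 genes, in all fibroblasts, in fibroblasts with Xist UMIs alone and in fibroblasts with only Y-linked UMIs. The line marks a ratio of 1. Acta2, Tagln, Myl9 and Tpm2 sit above 2 in cells with only Y-linked UMIs and below 1 in cells with Xist alone, while Rgs5 stays near 1 in both.

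Co-expression was described by the number of the 10 genes seen in a cell. At least 3 were seen in 26 of 324 WT fibroblasts (8.02%, 5.31 to 11.5) and 126 of 899 mgR fibroblasts (14%, 11.8 to 16.5), a difference of 5.99 percentage points (1.84 to 9.64). At equal depth of 2000 UMIs the shares were 1.70% and 2.08%, and the difference of 0.378 points (-2.00 to 2.03) was not detectable. In cells with Xist alone the shares were 15 of 81 WT (18.5%, 10.8 to 28.7) and 78 of 534 mgR fibroblasts (14.6%, 11.7 to 17.9). Their difference of -3.91 points (-14.5 to 4.52) was not detectable. In cells with only Y-linked UMIs they were 8 of 144 (5.56%, 2.43 to 10.7) and 34 of 213 (16%, 11.3 to 21.6), a difference of 10.4 points (3.51 to 16.8). The shares by set are at each cell's own depth. In endothelium 0 of 31 WT and 0 of 168 mgR cells had UMIs of 3 of the genes, which limits the shares of cells with such UMIs to 9.68% and 1.79%. Among the rest it was 0 of 491 and 1 of 2061 cells. Of the 27 WT and 131 mgR cells with 3 or more of the genes, 26 and 126 were fibroblasts, and they held 29.3% and 55.2% of all UMIs of the genes in fibroblasts.

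**Figure D3:**
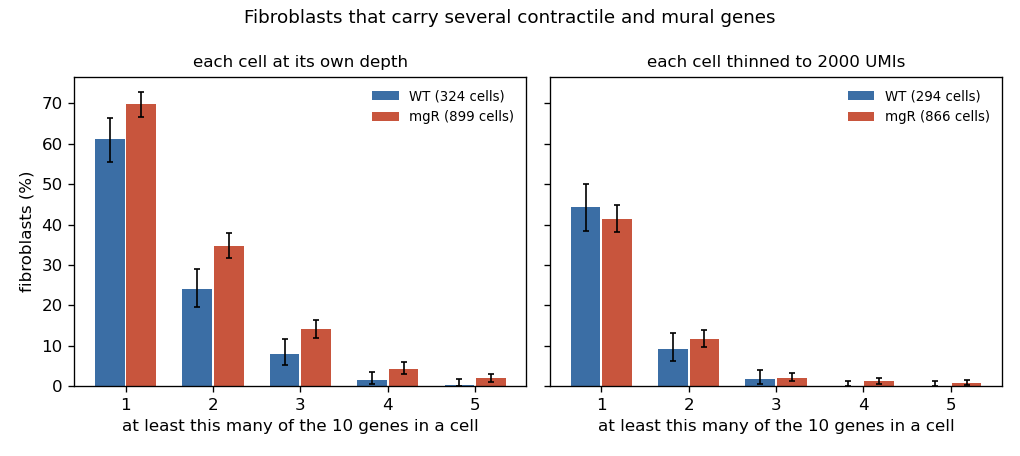
Percent of fibroblasts in which at least 1 to at least 5 of the 10 genes were seen, as bars with exact 95% binomial intervals, at each cell's own depth (left) and after thinning to 2000 UMIs (right). On the left mgR bars stand above WT bars, for instance 14% against 8.02% at 3 genes, and on the right the intervals overlap.

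The genes did not pair evenly. Acta2 and Tagln went together: Tagln was seen in 29 of 61 WT fibroblasts with Acta2 (47.5%, 34.6 to 60.7) and in 20.9% (16.2 to 26.3) of those without. In mgR it was seen in 116 of 261 with Acta2 (44.4%, 38.3 to 50.7) and in 28.5% (25.1 to 32.2) of those without. Tpm2 was seen with Tagln in 133 of 298 mgR cells (44.6%, 38.9 to 50.5) against 25.1% (21.7 to 28.8) of the cells without Tagln, while the WT shares of 23.8% (15.2 to 34.4) and 17.5% (12.9 to 22.9) overlapped. Notch3 was seen in 22.2% (6.41 to 47.6) of the 18 WT cells with Myl9 against 5.56% (3.27 to 8.75) without, where the intervals overlapped, and in 22.5% (14.3 to 32.6) of the 89 mgR cells with Myl9 against 4.32% (3.03 to 5.96) without. Between the mural markers, Notch3 was seen in 1 of 58 WT cells with Rgs5 (1.72%, 0.0436 to 9.24) and in 7.52% (4.65 to 11.4) of those without, and in 7 of 126 mgR cells with Rgs5 (5.56%, 2.26 to 11.1) against 6.21% (4.61 to 8.15) without. The intervals overlapped in both libraries. Acta2 was seen in 21.4% (14.6 to 29.6) of mgR cells with Rgs5 and 30.3% (27.1 to 33.7) of those without. After thinning to 2000 UMIs, Tagln was seen in 29.8% (21.8 to 38.7) of mgR cells with Acta2 against 13.6% (11.2 to 16.2) without, and in 18.9% against 16.3% in WT, where the intervals overlapped.

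The 8 mgR fibroblasts with Myh11 carried many of the other genes. They held from 1 to 5 Myh11 UMIs each, and Tagln in 8, Acta2, Myl9 and Tpm2 in 7, Notch3 in 6, Des in 4 and Rgs5 in 1 of them. The richest held 36 Acta2, 34 Tagln, 24 Tpm2, 9 Myl9 and 5 Myh11 UMIs among its 7586 UMIs, and the cell with 8 of the 10 genes held 12 Rgs5 and 4 Notch3 UMIs. These 8 cells made up 12.7% of all UMIs of the 10 genes in mgR fibroblasts, with 27.7% of the Notch3 and 20.3% of the Myl9 UMIs. Their collagen and decorin counts, from 17 to 104 UMIs, lay below the class median of 129. They also carried from 1 to 5 of 9 fixed pericyte markers and from 0 to 4 of 12 fixed smooth muscle markers. The fibroblast class is set by UMI limits and leaves out no cell for mural markers. Whether these 8 cells are fibroblasts or mural cells was not tested. None held Cnn1 or Actg2. In WT the Myh11 count was 1 UMI, in a cell over both class limits that held none of the other 9 genes.

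**Figure D4:**
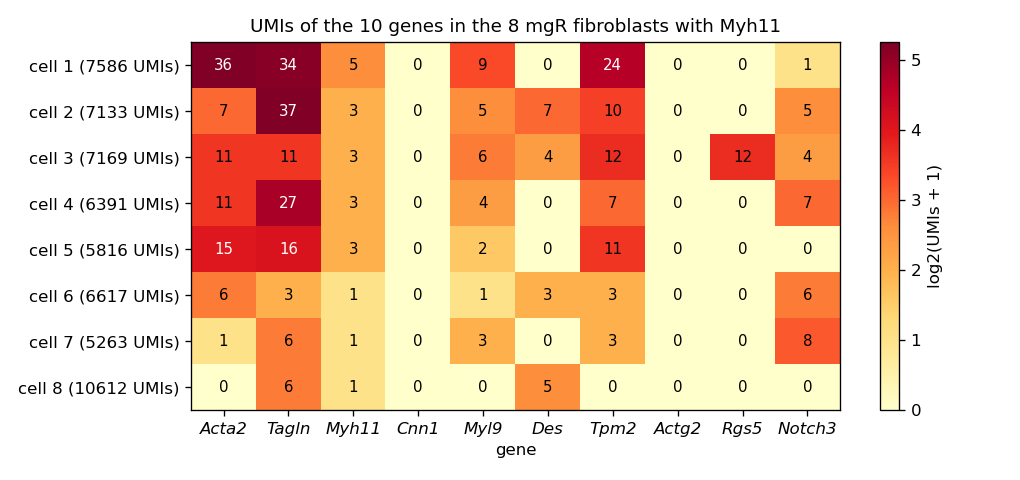
UMIs of each gene (columns) in each of the 8 mgR fibroblasts with Myh11 (rows, ordered by the sum over the 10 genes, with the cell's total UMIs), coloured by log2(UMIs + 1). Tagln is present in every row, and Cnn1 and Actg2 in none.

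The genes whose levels followed the mean of the members most closely over all kept cells were Dpt, Igfbp7, Lhfp, Bgn, Gsn, Rarres2, Lum, Ccdc80, Col3a1, Col1a2, Sparc and Pam, with Pearson r from 0.425 to 0.528 in 875 WT cells and from 0.438 to 0.529 in 3438 mgR cells. These are matrix and other fibroblast genes. Fibroblasts hold both them and the members, and Col1a2 and Col3a1 also define the class. For single members the closest gene was Tagln for Acta2 (r of 0.364 in WT and 0.409 in mgR) and Igfbp7 for Tagln (0.375 and 0.439). It was Gsn for Tpm2 (0.295 and 0.359), Igfbp3 for Myl9 (0.341 and 0.237) and for Notch3 (0.334 and 0.272), and Vcan for Rgs5 (0.372 and 0.382). Igfbp3 encodes a binding protein of insulin-like growth factors, and Vcan encodes versican, a large proteoglycan of the valve matrix. For Myh11 (Pkdcc), Des (Serpine2) and Cnn1 (Bckdhb), r was 0.185 or lower in both libraries, too low to read in such sparse counts. The cells of a library share its preparation and depth, so these values are descriptions.

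Within fibroblasts alone, close neighbours of single members were compared between cells with and without a UMI of the member. Fmod, Igfbp3, Col4a1, Postn, Vcan and Prss35 were picked from correlations in these same cells, so their ratios describe that choice and support nothing further. Fmod, Col4a1, Postn and Prss35 were chosen after their values were seen. Other pairings of these genes differed between the libraries: Col4a1 had a ratio of 0.769 (0.620 to 0.948) in WT and 1.45 (1.29 to 1.61) in mgR for cells with Tagln, and of 0.776 (0.602 to 0.988) and 1.68 (1.5 to 1.88) for cells with Tpm2. Fibroblasts with Acta2 held more Fmod, which encodes fibromodulin, a proteoglycan that binds collagen fibrils. Fmod was at 270.5 CPM in the 61 WT cells with Acta2 and 71.5 in the 263 without, a ratio of 3.79 (2.84 to 5.05), and at 427 and 122 CPM in mgR, a ratio of 3.50 (3.14 to 3.90). Fibroblasts with Rgs5 held little Fmod, with ratios of 0.0865 (0.0233 to 0.225) in WT and 0.133 (0.0921 to 0.185) in mgR. They held more Postn, which encodes periostin, with ratios of 2.40 (2.15 to 2.68) and 2.43 (2.29 to 2.58). Vcan was also higher in cells with Rgs5, by 1.97-fold (1.76 to 2.21) and 2.56-fold (2.39 to 2.75), as was the serine protease gene Prss35, by 3.36-fold (2.15 to 5.22) and 5.15-fold (3.83 to 6.93). Cells with Acta2 were deeper than those without, with medians of 6220 against 5039 UMIs in WT and 7938 against 6438 in mgR, as were cells with Rgs5, with 5722 against 5147 and 7572 against 6693. The part of depth in these ratios was not tested.

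Igfbp3 was also compared between fibroblasts with and without Notch3 or Myl9. It was at 2374 CPM in the 21 WT cells with Notch3 and 419 in those without, a ratio of 5.66 (4.87 to 6.56), and at 910 and 282 CPM in mgR, a ratio of 3.23 (2.88 to 3.62). For Myl9 the Igfbp3 ratios were 6.43 (5.55 to 7.44) and 3.69 (3.36 to 4.06). Cells with Rgs5 were low in Igfbp3, with ratios of 0.252 (0.187 to 0.334) and 0.280 (0.228 to 0.342). Col4a1, a basement membrane collagen, was higher in cells with Notch3 by 2.69-fold (2.07 to 3.44) and 3.47-fold (3.01 to 3.99). The first neighbour of Notch3 within fibroblasts was Cxcl1, which encodes a chemokine (r of 0.219 in WT and 0.228 in mgR), with ratios of 3.64 (3.05 to 4.32) and 6.32 (6.02 to 6.62), and it too was named after its values were seen. Fmod in mgR cells with Notch3 came to 1 UMI over 55 cells, a ratio of 0.0104 (0.000263 to 0.0581), and the WT ratio was 0.400 (0.129 to 0.951). The median depth of cells with and without Notch3 was 5143 and 5193 UMIs in WT and 6772 and 6834 in mgR. The ratios of Fmod for Acta2 and Rgs5, of Igfbp3 for Myl9, Notch3 and Rgs5, of Col4a1 for Notch3 and of Postn, Vcan and Prss35 for Rgs5 were also computed within cells with Xist alone and within cells with only Y-linked UMIs, which are parts of the cells that chose the genes. They lay on the same side of 1 in both sets of both libraries. For Prss35 in WT cells with only Y-linked UMIs the interval included 1 (1.46, 0.566 to 3.35), and in the 25 such WT cells with Rgs5 Fmod had 0 UMIs. Within these sets the Fmod ratio for Acta2 lay between 1.93 and 3.96, the Igfbp3 ratio for Notch3 between 2.17 and 6.11 and the Postn ratio for Rgs5 between 1.61 and 4.44. Without the Myh11 cells the same 3 mgR ratios were 3.57, 3.22 and 2.45.

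**Figure D5:**
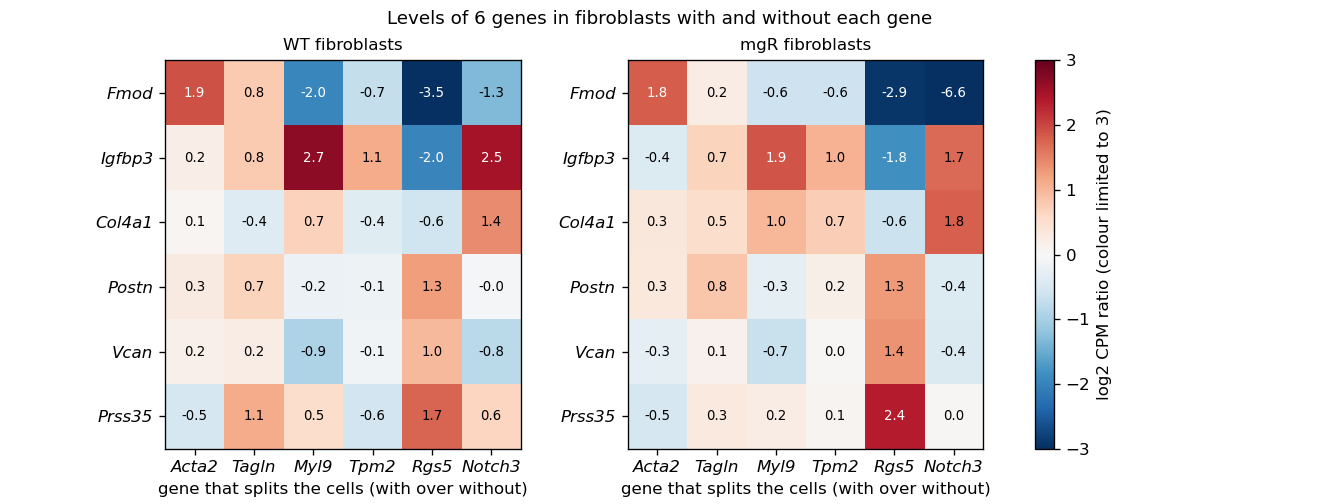
Log2 CPM ratio of 6 genes (rows) in fibroblasts with against fibroblasts without each of 6 members (columns), for WT (left) and mgR (right), with the colour limited to 3. Fmod is high beside Acta2 and low beside Rgs5, Igfbp3 is high beside Myl9 and Notch3 and low beside Rgs5, and Postn, Vcan and Prss35 are high beside Rgs5.

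Fibroblasts with 3 or more of the genes were compared with the other fibroblasts of the same library, leaving out the members themselves. They were deeper, with medians of 6235 against 5152 UMIs in WT and 7978 against 6552 in mgR. Of 4816 genes with at least 50 UMIs in each library, 30 (0.623%) were at least 1.5-fold higher in both libraries and 48 (0.997%) were 1.5-fold lower in both, by ratios computed with a prior count of 0.5. Of the 31 counted genes of the actomyosin list, 3 were higher (Mylk, myosin light chain kinase; Cnn2, a non-muscle calponin; Synpo2, an actin-binding protein) and 0 were lower. Mylk rested on 7 UMIs in the WT cells, where its plain ratio was 1.48 (0.566 to 3.29). The medians of this list were 0.20 and 0.31 on the log2 scale, against 0.02 and 0.05 over all genes counted. Of the 17 counted genes of myofibroblast activation, the collagen genes Col8a1 and Col12a1 were higher and Tgfbi was lower in both libraries. Col12a1 was at 92.9 against 43.5 CPM in WT and 86.8 against 41.4 in mgR. By the lower of both ratios the first gene was Sele, which encodes E-selectin, at 126 against 29.4 CPM in WT and 49.4 against 9.47 in mgR, a gene that was named after its values were seen. Hemoglobin genes differed between the same groups, in opposite directions in the libraries: cells with 3 or more of the genes had 0.105 (0.0340 to 0.247) times the Hba-a1 level of the others in WT and 5.13 (4.71 to 5.58) times in mgR, and for Hbb-bs these ratios were 0.116 (0.0732 to 0.174) and 3.79 (3.63 to 3.97). Their part in the other differences was not tested.

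Markers of vascular mural cells were measured in the same cells. At least 3 of the 9 pericyte markers were seen in 4 of the 26 WT fibroblasts with 3 or more members and in 49 of all 324, and in mgR in 45 of 126 and in 166 of all 899. At least 4 of the 12 smooth muscle markers were seen in 1 of 26 and 3 of 324 in WT, and in 11 of 126 and 17 of 899 in mgR, where the cells with 3 or more members were also the deeper ones. Genes with fewer than 50 UMIs in a library were not counted above. Of these, Mcam had a ratio of 4.60 (2.06 to 10.2) in mgR against 0.865 (0.0990 to 3.48) in WT. Lmod1 had 3.67 (2.25 to 5.93) against 3.89 (0.665 to 16.2), and Ppp1r14a had 3.06 (2.17 to 4.28) against 2.51 (0.926 to 5.84). Other markers were not raised: Cspg4 had 0.606 (0.251 to 1.27) in mgR against 1.15 (0.0263 to 8.32) in WT, and Kcnj8 had 0.985 (0.647 to 1.46) against 0.335 (0.00821 to 2.01). Of the 9 pericyte markers, Vtn had 0 UMIs in fibroblasts of both libraries and Higd1b had 0 in WT and 1 in mgR. Of the 4 with enough UMIs in each library, Ndufa4l2 was higher in cells with 3 or more of the genes, at 92.9 against 33.3 CPM in WT and 139 against 67.6 in mgR. Pdgfrb, the PDGF receptor of pericytes and fibroblasts, was at 299 against 231 CPM in WT and 151 against 129 in mgR. Abcc9 had ratios of 0.928 (0.519 to 1.55) in WT and 1.18 (0.900 to 1.53) in mgR, and Cox4i2 had 1.15 (0.558 to 2.15) and 1.69 (1.37 to 2.07). Pdgfrb was seen in 64.2% of all WT and 50.8% of all mgR fibroblasts, most of which held fewer than 3 members. The summed pericyte markers came to 493 CPM in WT and 392 in mgR fibroblasts, against 15.4 and 21.5 in endothelium. Of the 12 smooth muscle markers, Myocd and Casq2 had 0 UMIs in fibroblasts of both libraries. Synpo2 and Mylk, which are also in the actomyosin list, were higher in cells with 3 or more members. Smtn had ratios of 1.42 (0.545 to 3.15) in WT and 0.906 (0.554 to 1.42) in mgR, and Itga8 had 1.34 (0.828 to 2.08) and 1.16 (0.907 to 1.47). Cardiomyocyte markers summed to 33.3 CPM in WT and 35.2 in mgR fibroblasts, with 10 and 3 of the 14 at 0. Epicardial markers summed to 0.584 and 0.154 CPM, with 4 of 5 at 0 in both. Schwann cell markers summed to 115 and 113 CPM, melanocyte markers to 4.08 and 2.62, endothelial markers to 26.3 and 40.6, and hemoglobin genes of red cells to 1861 and 1916. Leukocyte markers summed to 43.8 CPM in WT and 214 in mgR fibroblasts, and all 5 were at least 1.5-fold higher in mgR. Without cells with 3 or more leukocyte UMIs, the median log2 ratio of the members was 0.59, against 0.55 with them.

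Between genotypes, the median ratio of the wider contractile apparatus was close to that of all genes, while single genes of it differed. Of the 36 counted genes of the actomyosin list, 2 were at least 1.5-fold higher in mgR and 0 were 1.5-fold lower, with a median log2 ratio of 0.04. Over all 9629 counted genes, 7.39% were higher and 7.6% lower by that fold, so the count of higher genes was near the share over all genes. The highest ratios were those of Lmod1 (1.8, 0.952 to 3.77), which encodes leiomodin, Synm (1.71, 0.898 to 3.57), which encodes synemin, and Palld (1.42, 1.04 to 1.99), which encodes palladin. The lowest were those of Smtn (0.675, 0.495 to 0.931), Sorbs3 (0.685, 0.529 to 0.893) and Mylk (0.727, 0.532 to 1.01). The other genes of the list with intervals above 1 were Actn1, Rock1, Rock2, Tagln2, Tln1, Myl6, Myl12b, Tpm3, Cald1 and Myl12a. Among them were Rock1 (1.30, 1.17 to 1.45), Tagln2 (1.29, 1.20 to 1.39) and Myl6 (1.25, 1.18 to 1.32). Those with intervals below 1 were Smtn, Sorbs3 and Flna (0.807, 0.698 to 0.935). The share of all counted genes with intervals above or below 1 was not computed, so these genes cannot be set against it. The actins of every cell had ratios near 1, with 0.987 (0.951 to 1.03) for Actb and 0.988 (0.941 to 1.04) for Actg1. Of the 12 counted genes of serum response factor and myocardin regulators, Tcf21, a transcription factor of cardiac fibroblasts, was lower (0.620, 0.540 to 0.713). The other ratios ran from 0.817 for Gata6 to 1.43 for Mrtfa (0.720 to 3.15), with Klf4 at 1.22, Nfatc4 at 1.15 and Mrtfb at 0.941.

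Of the 8 counted Notch signaling partners of mural cells, 5 were at least 1.5-fold lower in mgR fibroblasts and 0 higher, with a median log2 ratio of -0.71 over 10 genes. The shares over all 9629 counted genes were 7.6% lower and 7.39% higher. The lowest were the Notch target Heyl (0.565, 0.448 to 0.716), the ligands Dll1 (0.578, 0.312 to 1.12) and Jag1 (0.592, 0.414 to 0.857), and the highest were Rbpj, the transcription factor of the pathway (1.02, 0.853 to 1.24), Hey1 (0.710, 0.477 to 1.08) and Notch1 (0.684, 0.562 to 0.837). Hes1 fell from 409 to 247 CPM. Heyl had 0 UMIs in endothelium and 0 and 3 UMIs in the rest, so like the members it was found in fibroblasts. Notch3 itself had a ratio above 1, with an interval that included 1. Within the PDGF and angiopoietin list of 10 counted genes, Pdgfra (0.519, 0.456 to 0.592), Pdgfrb (0.561, 0.498 to 0.633) and S1pr3 (0.669, 0.445 to 1.03) were lowest. Pdgfd (1.67, 0.923 to 3.26), Angpt2 (1.64, 0.808 to 3.78) and Tek (1.59, 0.806 to 3.48) were highest, with intervals that included 1.

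Of the 22 genes of myofibroblast activation, 4 were at least 1.5-fold higher in mgR and 2 lower, with a median log2 ratio of -0.16. The shares over all 9629 counted genes were 7.39% higher and 7.6% lower. Cthrc1, a secreted collagen triple helix protein, was at 5.83 CPM in WT and 22.7 in mgR (3.89-fold, 2.05 to 8.27). Tnc (tenascin-C) was higher by 2.30-fold (1.05 to 5.97), Col8a1 by 1.85-fold (1.5 to 2.31) and Comp (cartilage oligomeric matrix protein) by 1.78-fold (1.66 to 1.92). The lowest were Fap (0.562, 0.421 to 0.756), Thbs1 (0.635, 0.596 to 0.675) and Itga11 (0.671, 0.420 to 1.10). Among the mural markers, Ndufa4l2 (2.07, 1.60 to 2.71), Cspg4 (1.93, 0.992 to 4.19) and Kcnj8 (1.54, 1.05 to 2.31) were higher in mgR, and Mcam (0.295, 0.168 to 0.521), Abcc9 (0.512, 0.430 to 0.612) and Pdgfrb were lower. Of the smooth muscle markers, Itga8 was lowest (0.593, 0.501 to 0.704). The lists were not split by Xist and Y-linked UMIs, and the part of the unequal mix in their ratios was not tested.

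Outside fibroblasts the most UMIs were those of Tpm2 in the mgR rest, with 103 in 74 cells, of which 71 were leukocytes. Acta2 had 27 UMIs in 24 cells of the mgR rest. Endothelium held 1 Acta2 UMI in WT and 22 in mgR, and 20 of the latter were in 1 cell. Cells over both class limits numbered 29 in WT and 310 in mgR, and carried 3 or more of the genes in 1 and 4 of them. Their Acta2 came to 1 and 71 UMIs, and 3 mgR cells held 3 or more of these, the highest with 23. Whether such cells are doublets was not tested beyond Scrublet, which marked 7 WT and 51 mgR cells. Among the mgR rest, 4 cells held both platelet genes Ppbp and Gp9, and these had 21 of its 24 Myl9 UMIs. In 3 of them the Myl9 counts were 8, 6 and 6. They were looked at after their values were seen.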

How the data were processed

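The deposited values were UMI counts per gene and cell barcode, not normalized, which the authors made with Cell Ranger 7.1.0 on the mm10 build (per the submitters' processing notes) from 3-prime libraries. Cells with 200 to 5000 genes and at most 10% mitochondrial UMIs were kept, the study's own limits. For each class of a library, UMIs were added up and scaled to 1000000 UMIs of the class (CPM). Intervals were exact Poisson for sums, Clopper-Pearson for shares and conditional binomial for ratios, at 95%, and 0 counts were read as up to 3. Folds of 1.5 were counted among genes with at least 50 UMIs, and medians taken over genes with at least 10, with a prior count of 0.5. Cells were thinned to 2000 UMIs with a fixed seed. Neighbour correlations used log-normalized values (scale 10000) and genes seen in at least 20 cells of each library. Doublets were not removed; Scrublet (scanpy 1.11.5) marked 0.8% of WT and 1.48% of mgR cells, and leaving them out was an alternative. Python 3.11.15, numpy 2.4.6, scipy 1.17.1 and pandas 2.3.3 were used, and the ratio and thinning steps were tested on simulated data.

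Named genes were all members, the class genes, Fbn1, the 12 closest neighbours of the members' mean and the closest of each member, and the 3 highest and 3 lowest ratios of each fixed list. Other genes were named outside this rule with their values seen, also where the text does not say so. Hes1, Rock1, Tagln2, Myl6, Flna, Hba-a1 and Hbb-bs are among them. The members and lists were chosen with earlier results of these data known. Deposited barcodes outside the limits (229 WT and 364 mgR) were left out.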

Additional observations from a re-analysis of the deposited data

Results flagged for a closer look

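The mgR over WT ratio of 4 contractile genes differed between fibroblasts with Xist alone and fibroblasts with only Y-linked UMIs, with intervals that did not overlap. For Acta2 the ratios were 0.987 and 2.25, for Tagln 0.822 and 2.60, for Myl9 0.534 and 6.12, and for Tpm2 0.773 and 3.33. The intervals cover counting error only, and the difference was not tested, since each genotype had 1 library.

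A signal was also seen among barcodes outside the limits on genes and mitochondrial UMIs. Acta2 had 28 UMIs in 4 of the 364 mgR barcodes left out, of which 25 were in 1 barcode, and 0 UMIs in the 229 WT barcodes left out.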

How the results depend on the processing

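Of 187 values under 21 settings, 156 stayed within the counting interval of the reported value (for counts, within 1.5 times it), 24 moved further and 7 reversed. The count of members at least 1.5-fold higher in mgR fibroblasts, 2 of 6, became 0 after thinning to 2000 UMIs, 0 in cells with Xist alone, 5 in cells with only Y-linked UMIs, 1 with the mean of per-cell fractions and 0 at a fold of 2. Under alternatives chosen after seeing the data it became 0 without the Myh11 cells and 1 with cells over both limits counted as fibroblasts. The median log2 ratio of 0.55 became -0.25 in cells with Xist alone, 1.32 in cells with only Y-linked UMIs and 0.0617 without the Myh11 cells. Leaving out the Myh11 cells removed mgR fibroblasts alone, which can lower the count and the median, and Myh11 stayed in that median through the prior count. The difference of 5.99 points in fibroblasts with 3 or more members became 0.378 after thinning and -3.91 (-14.5 to 4.52) in cells with Xist alone. It was 10.4 points in cells with only Y-linked UMIs and 10.6 points at 2 or more members. The difference of 0.0485 points in the rest became 1.25 points without leukocyte-marker cells, which left 64 WT and 80 mgR cells. Of Acta2, Tagln, Myl9 and Tpm2, whose reported intervals lay above 1, the ratio fell below 1 in cells with Xist alone (Acta2 0.987, Tagln 0.822, Myl9 0.534, Tpm2 0.773) and for Tagln after thinning (0.956). Rgs5, Notch3 and Des, whose intervals included 1, lay on both sides of 1, with ratios from 0.736 to 1.15 for Rgs5, from 0.665 to 2.37 for Notch3 and down to 0.934 for Des without the Myh11 cells. The cause was not tested. No paired analysis was possible because there was 1 library per genotype and no test. Depth limits Cnn1, Des and Actg2, which had too few UMIs for a ratio in either direction.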
